A study of Mus musculus with 8 samples.

Results

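The genes described are 148 mouse genes whose symbol is Zfp followed by a number, the naming scheme for zinc finger proteins. They were chosen from the 24421 genes of the count tables by 2 rules, the symbol and a sum of at least 100 reads over all 8 long-read libraries, and Zfp42 was left out by name. Of 336 Zfp-numbered symbols, 188 stayed under 100 reads and 12 of these had no read in any library. R1 mouse embryonic stem cells (ESCs), an established pluripotent line, were studied in the undifferentiated state (Undiff) and once differentiated (Day4), after the cells had grown as embryoid bodies without LIF and then for 4 days with retinoic acid (RA), a vitamin A derivative that drives differentiation. No genetic change separates the groups. The methods and the series design give RA as 2 µM and a label of the samples gives the same digit in mM, and the labels call both states embryoid bodies whereas the methods describe Undiff as cells kept with LIF. Polyadenylated RNA was read on Oxford Nanopore flow cells with 2 kits, Direct RNA, in which the native strand enters the pore (500 ng input), and cDNA, in which it is first copied and amplified by PCR (50 ng input). The 4 groups (Direct RNA Undiff, Direct RNA Day4, cDNA Undiff and cDNA Day4) held 2 libraries each, from 2 cultures per state that the methods describe as grown and treated separately and whose RNA went into both kits.

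Most zinc finger proteins are DNA-binding proteins built from repeats of the C2H2 finger, a short loop in which a pair of cysteines and a pair of histidines hold a zinc ion. In many of them the fingers follow a KRAB domain, which recruits the co-repressor Trim28 (KAP1) and, with it, enzymes for the silencing marks of heterochromatin. KRAB zinc finger genes multiplied by local duplication and stand in clusters, and in ESCs several of them silence retroviral repeats or protect the methylation of imprinted genes. Other members carry a SCAN domain or only fingers, and some bind RNA or work on ribosomes.

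Protein models on GRCm38 (the assembly of mm10) gave 68 members with a KRAB domain, 3 with a SCAN domain and no KRAB, 73 others with C2H2 fingers, and 4 (Zfp36, Zfp330, Zfp503 and Zfp703) in which no C2H2 finger was found. The median number of fingers was 9 and the highest 33, in Zfp462. The coding bases of 1 finger are shown for 6 genes called between states with both kits, 4 of which fell and 2 of which (Zfp358 and Zfp422) rose. Capitals mark the codons of the cysteine and histidine pairs that hold the zinc, the stretch reads 5′ to 3′ on the gene's strand, and every stretch lies inside 1 coding exon. The Zfp57 finger is at chr17:37009679-37009741 (+) in coding exon 3 of 3, and that of Zfp568 at chr7:30022724-30022786 (+) in coding exon 8 of 8. The Zfp459 finger is at chr13:67408579-67408641 (-) in coding exon 3 of 3, and that of Zfp296 at chr7:19579639-19579704 (+) in coding exon 3 of 3. The Zfp358 finger is at chr8:3495885-3495947 (+) and that of Zfp422 at chr6:116626806-116626868 (-), each in the only coding exon.
Zfp57: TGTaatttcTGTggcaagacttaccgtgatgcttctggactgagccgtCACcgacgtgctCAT
Zfp568: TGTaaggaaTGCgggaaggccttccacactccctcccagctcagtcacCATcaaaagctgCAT
Zfp459: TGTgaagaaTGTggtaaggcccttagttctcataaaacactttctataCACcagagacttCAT
Zfp296: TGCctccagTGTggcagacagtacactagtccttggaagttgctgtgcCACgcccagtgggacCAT
Zfp358: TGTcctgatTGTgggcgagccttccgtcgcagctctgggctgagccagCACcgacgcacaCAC
Zfp422: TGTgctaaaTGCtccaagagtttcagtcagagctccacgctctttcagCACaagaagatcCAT
The spacing of the capitals was the same in 5 of these fingers (63 bases), and the Zfp296 finger had 1 more codon (66 bases) between its histidines.

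Libraries held from 283461 to 2088592 reads on genes, with the 4 Direct RNA libraries all shallower than the 4 cDNA libraries, so that 3 reads, taken as the floor of a library, stood for 1.44 to 10.6 CPM (reads scaled to 1000000 on genes). Members were detected with more than 1 read in 128 to 146 cases per library. Pluripotency markers summed to 10079 to 22408 CPM in the Undiff libraries and to 80.4 to 890 CPM in the Day4 libraries, and 6 markers of RA-treated cells to at most 4.79 and at least 337 CPM. The sums for primitive or visceral endoderm (0 to 8.61 CPM in Undiff, 181 to 931 CPM in Day4) and for fibroblasts (4.31 to 14.3 and 220.0 to 2935 CPM) were also higher at Day4. The sum of 4 neuron markers was lower at Day4 (78.0 to 174 and 19.0 to 39.4 CPM), although Rbfox3 had reads in Direct RNA Day4 and none in Direct RNA Undiff. Sums of 4 endothelial markers overlapped between states (70.5 to 121 and 81.1 to 134 CPM in Direct RNA, 32.7 to 35.4 and 34.1 to 49.1 CPM in cDNA), although Cdh5 had reads only at Day4 with each kit. The 3 blood markers were at 0 in every library. The endoderm, fibroblast and neuron lists moved with state wherever states are compared below, their part in the results was not tested, and in such bulk RNA fewer cells of a type and less RNA per cell cannot be told apart. The rule itself admits a gene through the state or kit in which it is high. Of the 148 members, 45 reached 100 reads in the Day4 libraries alone and not in the Undiff libraries alone, 12 did so in Undiff and not in Day4, 32 in each state and 59 in neither, and 69.3% of all member reads came from cDNA. Counts and medians over the members are therefore descriptions of these genes.

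The summed share of the members in the reads on genes was set out by library, and its order between kits and states depended on the scaling and on the read minimum. In Direct RNA the summed share was 0.603% and 0.616% of the reads on genes in the Undiff libraries and 0.711% and 0.651% in the Day4 libraries. Both Day4 libraries thus lay above both Undiff libraries. In cDNA it was 0.405% and 0.466% in Undiff and 0.461% and 0.632% in Day4, and the states overlapped, because Day4 replicate 1 lay below Undiff replicate 2. Means ± SD for Undiff and Day4 were 0.609 ± 0.00879% and 0.681 ± 0.0421% with Direct RNA, against 0.435 ± 0.0430% and 0.547 ± 0.121% with cDNA (n = 2 each). With DESeq2 size factors in place of library totals the order of the kits turned, with summed levels of 4706 (Direct RNA) and 6129 (cDNA) in Undiff and 4812 and 5935 at Day4, and Day4 was then the lower state in cDNA. Among members with at least 200 reads the Direct RNA sum was 4160 CPM in Undiff and 3866 CPM at Day4, so that the order of the states turned as well. A few genes carried much of the sum. The 5 members with most reads (Zfp207, Zfp706, Zfp710, Zfp57 and Zfp266) made up 18.5% and 20.4% of the member reads in Direct RNA Undiff and 10.97% and 11.8% in Direct RNA Day4. In cDNA they made up 40.8% and 43.6% in Undiff and 26.7% and 30.2% in Day4. Without them the remaining 143 members summed to 2396 and 2627 CPM in cDNA Undiff and to 3377 and 4415 CPM in cDNA Day4, where the states no longer overlapped. After thinning of every library to the 283461 reads of the smallest, 123 members were detected in each Direct RNA Undiff library, 141 and 139 in Direct RNA Day4, 91 and 106 in cDNA Undiff and 125 and 133 in cDNA Day4.

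**Figure D1:**
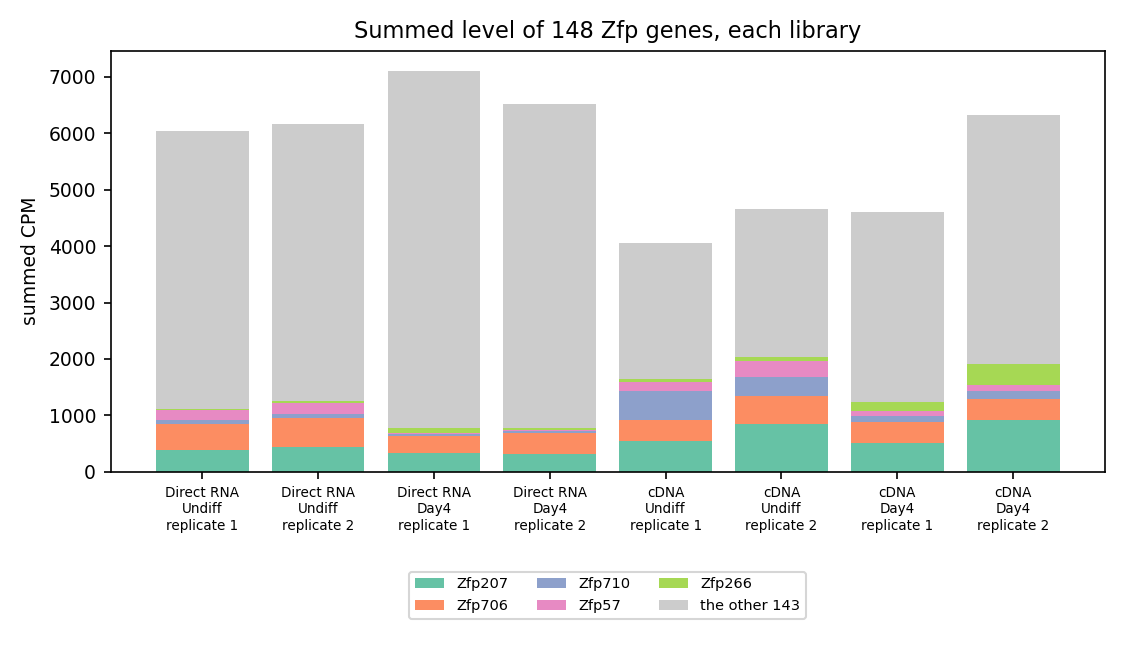
Bars give the summed level of the 148 Zfp genes in CPM for each of the 8 libraries, divided into the 5 genes with most reads (colours) and the other 143 (grey). The grey part is taller at Day4 than in Undiff with each kit, and the coloured part is largest in cDNA Undiff replicate 2.

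Levels between genes were compared per length, as mean CPM over the 8 libraries per kb of the longest transcript. Zfp207 (BuGZ), a spindle assembly protein, stood first with 163 CPM per kb, followed by Zfp706 with 92.2, Zfp428 with 71.9, Zfp296 with 58.6 and Zfp57 with 50.5, against a median of 7.41 over the 148 genes. The order depended on the state and the kit. Zfp296 had 115 CPM per kb in Undiff (rank 2 of 148) and 1.92 at Day4 (rank 143), and Zfp57 had 77.2 (rank 5) and 23.9 (rank 17). Zfp428 had 127 CPM per kb in Direct RNA and 17.2 in cDNA, whereas Zfp207 had 113 in Direct RNA and 214 in cDNA. Zfp207 itself held 385 and 446 CPM in Direct RNA Undiff, 328 and 317 CPM in Direct RNA Day4, 539 and 840 CPM in cDNA Undiff and 516 and 911 CPM in cDNA Day4. Its states overlapped in cDNA, and neither kit called it between states. At the other end, just inside the minimum, Zfp65, Zfp672 and Zfp867 had exactly 100 reads in all, and Zfp850, Zfp882 and Zfp935 fell 1 read short with 99.

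Between states, Zfp503 and Zfp703, a pair of related transcriptional regulators of development, had the highest fitted log2 fold changes with both kits. Zfp296, a factor of the pluripotent state, and the KRAB genes Zfp936, Zfp459, Zfp568 and Zfp57 fell with both. Where Undiff had no read only a bound holds, at least 31.3-fold for Zfp503 in Direct RNA and 9.34-fold and 13.9-fold for Zfp503 and Zfp703 in cDNA. These bounds lie below the ratios of pooled reads of Zfp362 (54.7 in Direct RNA and 29.5 in cDNA), so the order among the genes that rose is not settled. Calling a gene took a DESeq2 adjusted p of at most 0.05, a change of 1 or more on the log2 scale and a mean normalised count of 5 or more. In Direct RNA, 12 of 141 members tested were called higher at Day4 (8.51%, against 9.54% of 9646 genes) and 6 lower (4.26%, against 7.67%). In cDNA, 15 of 143 were called higher (10.5%, against 8.69% of 10271 genes) and 8 lower (5.59%, against 9.24%). With edgeR's quasi-likelihood test the counts were 31 higher and 17 lower in Direct RNA, where it called 18.7% and 15.1% of all genes, and 39 higher and 12 lower in cDNA, where it called 17.0% and 15.6%. The median log2 fold change over the members was 0.42 in Direct RNA and 0.53 in cDNA, beside 0.03 and 0.00 over all genes tested, and it was also 0.42 and 0.53 with genes at 0 in a state put at their bound. Under 20 other settings of each fit it ranged from 0.27 to 0.53 for Direct RNA and from 0.42 to 0.62 for cDNA. The counts of calls moved with single libraries. In Direct RNA, 18 calls became 10 without Undiff replicate 1, 4 without Undiff replicate 2, 10 without Day4 replicate 1 and 6 without Day4 replicate 2. In cDNA, 23 calls became 14, 8, 11 and 8 in the same order, and 5 after thinning to the smallest library.

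**Figure D2:**
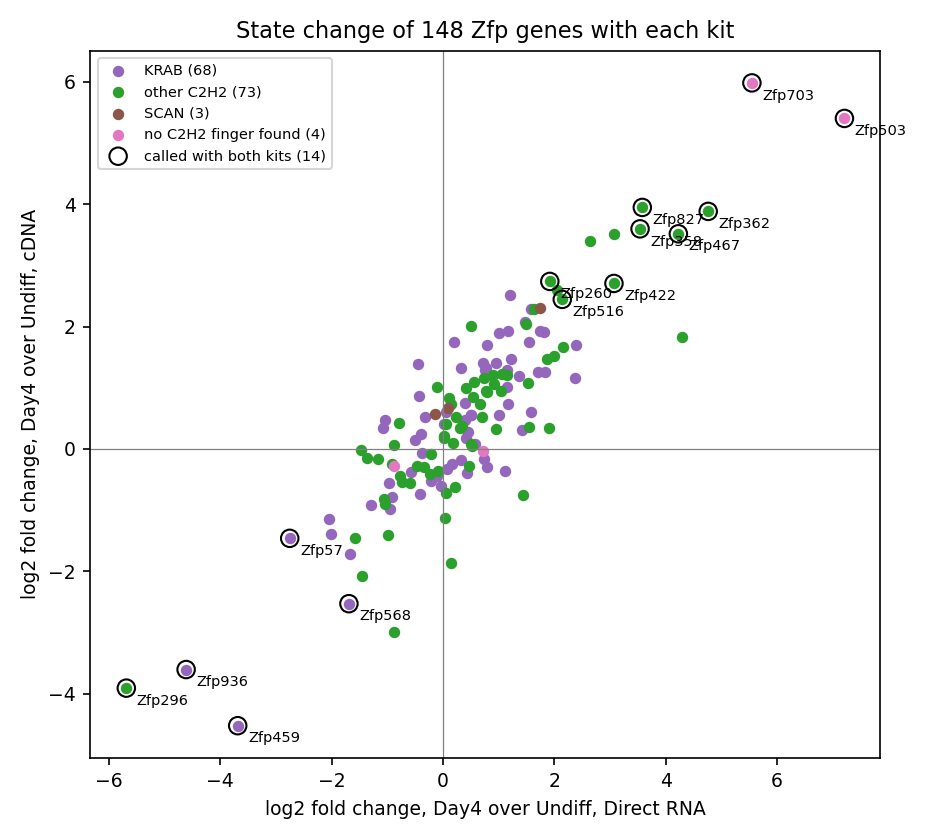
Each point is 1 of the 148 Zfp genes, with its log2 fold change of Day4 over Undiff in Direct RNA (x axis) and in cDNA (y axis), coloured by protein class, and rings mark the 14 genes called with both kits. The 9 ringed genes at the upper right include no KRAB gene, and 4 of the 5 ringed genes at the lower left are KRAB genes.

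A total of 27 of 148 members were called with at least 1 kit (22.4% of 11197 genes were). Of the 136 tested with both kits, 9 were called higher with both and 5 lower with both, where 6.19% and 5.18% of 8720 genes were, and none was called in opposite directions. The 14 were 77.8% of the calls of Direct RNA and 60.9% of those of cDNA, where over all genes the shared calls were 59.8% and 53.9%. RNA from the same duplicate samples was used for both kits, so that agreement between kits is no second set of cultures.

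Zfp503 (Nolz1), which represses transcription in the developing brain, had no read in any Undiff library. At Day4 it had 55 and 132 reads in Direct RNA (194 and 179 CPM) and 23 and 53 reads in cDNA (17.4 and 25.5 CPM). Set against a floor of 3 reads in each library, Day4 was at least 31.3-fold higher with Direct RNA and at least 9.34-fold higher with cDNA (DESeq2 adjusted p = 2.9e-09 and 0.000406). Zfp703, of the same NET family, had a single read in both Undiff libraries of Direct RNA and none in those of cDNA. At Day4 it reached 183 and 106 CPM in Direct RNA and 31.9 and 32.3 CPM in cDNA. The ratio of the pooled reads in Direct RNA was 79.96 (95% exact interval 21.7 to 667), and in cDNA it was at least 13.9-fold higher (DESeq2 adjusted p = 3.09e-08 and 2.82e-05). Such intervals, here and below, cover counting error only and leave out the variation between cultures. Both genes were thus at or near 0 before differentiation and well above the floor after it.

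Zfp362 gave 2.87 and 1.10 CPM in Direct RNA Undiff, 70.6 and 93.6 CPM in Direct RNA Day4, 0 and 0.958 CPM in cDNA Undiff and 15.2 and 22.1 CPM in cDNA Day4. With 2 reads in the Undiff libraries of each kit, its pooled ratios were 54.7 (14.7 to 459) and 29.5 (7.85 to 249). Zfp467 gave 2.87 and 0 CPM, then 38.8 and 46.1 CPM in Direct RNA, and 2.11 and 0.479 CPM, then 22.8 and 21.7 CPM in cDNA. For both genes each Day4 library was above each Undiff library of its kit, which held for 37.3% of all genes tested in Direct RNA and 43.1% in cDNA. Zfp827, which binds at telomeres and recruits the NuRD chromatin complex, went from 2.87 and 2.20 CPM to 74.1 and 25.8 CPM in Direct RNA and from 8.43 and 3.35 CPM to 140 and 94.4 CPM in cDNA. The log2 fold changes were 3.58 ± 0.99 (SE) with Direct RNA and 3.95 ± 0.62 with cDNA (DESeq2 adjusted p = 0.00513 and 2.32e-08). The DNA-binding proteins Zfp358, Zfp422 and Zfp260, with 9, 5 and 12 fingers, rose as well. Zfp358 had 20.1 and 4.41 CPM in Direct RNA Undiff and 159 and 138 CPM in Direct RNA Day4, a log2 fold change of 3.54 ± 0.65, and 3.60 ± 0.81 in cDNA. Zfp422 had 8.43 and 19.2 CPM in cDNA Undiff and 105 and 142 CPM in cDNA Day4, a log2 fold change of 2.70 ± 0.53, and 3.07 ± 0.60 in Direct RNA. Zfp516, a regulator of brown fat genes, had 28.7 and 14.3 CPM in Direct RNA Undiff and 159 and 58.3 CPM in Direct RNA Day4, and it lost its call whenever 1 library of a kit was left out.

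**Figure D3:**
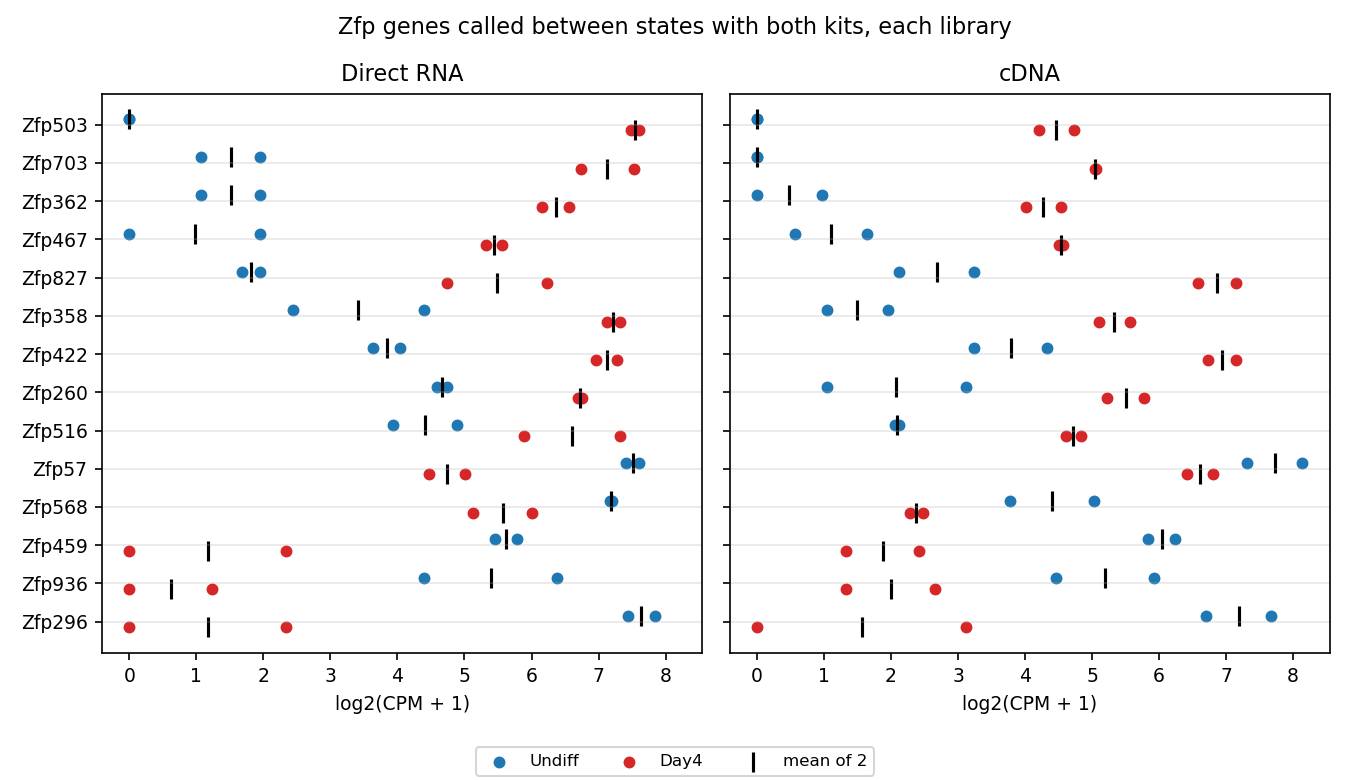
Points give log2(CPM + 1) of the 14 members called between states with both kits, 1 point per library, in Direct RNA (left) and cDNA (right), with Undiff in blue, Day4 in red and the mean of the 2 libraries as a black bar. The 9 upper genes have both red points to the right of both blue points in each panel, and the 5 lower genes have them to the left. These genes were picked by their calls, so the separation is no further result. Of all genes tested, 37.3% in Direct RNA and 43.1% in cDNA had both Day4 libraries above both Undiff libraries, and 30.3% and 23.2% below.

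Among the genes that fell, Zfp296, which takes part in reprogramming to pluripotency, had 172 and 228 CPM in Direct RNA Undiff and 0 and 4.07 CPM in Direct RNA Day4. In cDNA it went from 103 and 202 CPM to 0 and 7.70 CPM. The pooled ratio of Undiff over Day4 in Direct RNA was 72.4 (24.5 to 353), and the log2 fold changes were -5.69 ± 0.80 and -3.91 ± 1.40 (DESeq2 adjusted p = 1.29e-10 and 0.0486). In cDNA its DESeq2 adjusted p was 0.0562 with TMM factors, 0.603 without Undiff replicate 1 and 0.729 without Undiff replicate 2, and the log2 fold change without 1 library lay between -7.48 and -2.09. An exon of Zfp296 overlaps one of Gemin7 on the other strand, and exons of Zfp703 and Zfp459 also overlap a gene on the other strand. Zfp57, the KRAB protein that keeps methylation at imprinting control regions, had 169 and 194 CPM in Direct RNA Undiff against 21.2 and 31.2 CPM at Day4, and 158 and 281 CPM in cDNA Undiff against 84.2 and 111 CPM at Day4. On the log2 scale the change was -2.75 ± 0.52 (Direct RNA) and -1.46 ± 0.43 (cDNA) (DESeq2 adjusted p = 4.83e-06 and 0.00881), and the groups did not overlap with either kit. Both Day4 libraries were below both Undiff libraries for 30.3% of all genes tested in Direct RNA and 23.2% in cDNA. Zfp568, which represses a placental Igf2 transcript, had 143 and 145 CPM in Direct RNA Undiff and 63.5 and 33.9 CPM at Day4, a log2 fold change of -1.69 ± 0.51, beside -2.53 ± 0.80 with cDNA. The KRAB genes Zfp459 and Zfp936 fell to a few reads. Zfp459 had 43.0 and 54.0 CPM in Direct RNA Undiff and 0 and 4.07 CPM at Day4 (pooled ratio 17.3, 5.67 to 86.3), and 74.8 and 56.0 CPM against 1.52 and 4.33 CPM in cDNA. Zfp936 had 20.1 and 82.6 CPM in Direct RNA Undiff and 0 and 1.36 CPM at Day4 (pooled ratio 66.7, 11.6 to 2665), and 21.1 and 59.8 CPM against 1.52 and 5.30 CPM in cDNA.

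Refits without 1 library at a time were made, 4 for each kit, in which the state left with 1 library is assumed to vary like the other. Zfp703 stayed called in all 8 such fits, Zfp422 in 7, Zfp296, Zfp358 and Zfp503 in 6, Zfp936 in 5, and Zfp459, Zfp57 and Zfp827 in 4. Zfp362 stayed in 3, Zfp467 and Zfp568 in 2, Zfp260 in 1 and Zfp516 in 0, and no fit reversed the direction of any of the 14.

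Direct RNA alone called Zfp579, Zfp523 and Zfp146 higher and Zfp961 lower at Day4. The cDNA kit alone called Zfp697, Zfp651, Zfp637, Zfp68, Zfp868 and Zfp266 higher and Zfp710, Zfp64 and Zfp106 lower. Of these 13 genes, Zfp266 and Zfp868 changed sign in Direct RNA without 1 library (lowest log2 fold changes -0.13 and -0.12). The edgeR test called Zfp579, Zfp146 and Zfp961 in cDNA and Zfp637, Zfp651, Zfp710, Zfp64 and Zfp106 in Direct RNA. Zfp579 had 0 and 2.20 CPM in Direct RNA Undiff and 63.5 and 48.8 CPM at Day4, beside 3.16 and 1.92 CPM and 18.2 and 7.22 CPM in cDNA. Zfp266 had 60.1 and 60.8 CPM in cDNA Undiff and 151 and 370 CPM at Day4, beside 25.8 and 29.8 CPM and 88.2 and 25.8 CPM in Direct RNA, where the states overlapped. Zfp710 went the other way, from 520 and 344 CPM in cDNA Undiff to 120 and 134 CPM at Day4, and had 77.5 and 82.6 CPM against 31.8 and 28.5 CPM in Direct RNA.

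Calls by DESeq2 were counted by protein class. Of 64 KRAB members tested in Direct RNA, 0 were called higher (9.54% of all genes were, and 10 members had an unadjusted DESeq2 p of at most 0.05 in either direction) and 5 lower (7.81%, against 7.67% of all genes), Zfp57, Zfp459, Zfp568, Zfp936 and Zfp961. Of 70 other C2H2 members, 10 were called higher (14.3%) and 1 lower (1.43%), Zfp296. With edgeR, which called 18.7% of all genes higher and 15.1% lower in Direct RNA, the counts were 10 KRAB members higher and 8 lower, and 18 other C2H2 members higher and 9 lower. In cDNA the KRAB members had 3 called higher (Zfp68, Zfp266 and Zfp868) and 4 lower of 68 (4.41% and 5.88%), and the other C2H2 members 10 higher and 4 lower of 68 (14.7% and 5.88%), beside 8.69% and 9.24% of all genes. There edgeR called 17 KRAB members higher and 6 lower, and 19 other C2H2 members higher and 6 lower. Its shares of all genes in cDNA were 17.0% higher and 15.6% lower, so the low count of KRAB members called higher in cDNA was particular to DESeq2. The median log2 fold change of the KRAB class was 0.44 with Direct RNA and 0.50 with cDNA, that of the other C2H2 class 0.37 and 0.47, and no test of the difference between the classes was made. The members lay on 20 chromosomes, 36 of them on chromosome 7, 18 on chromosome 17 and 16 on chromosome 8. Stretches with at least 4 members and gaps of at most 500000 bases numbered 6. In the stretch chr8:69209038-69791178, which held 5 KRAB genes (Zfp930, Zfp868, Zfp869, Zfp963 and Zfp866), log2 fold changes were positive for 5 of 5 in Direct RNA and 4 of 5 in cDNA, with medians of 1.16 and 1.74, and DESeq2 called only Zfp868 in cDNA, whereas edgeR, by which 18.7% and 17.0% of all genes were higher, called 2 of the 5 with Direct RNA and 3 with cDNA. Of these 5, Zfp866 and Zfp963 have exons that overlap Gm20422 on the same strand. The stretch chr7:4983483-5053723, with 4 members and 0 KRAB genes, had positive changes for 4 of 4 in Direct RNA and 3 of 4 in cDNA. Its medians were 1.51 and 1.09. Over all members tested, 66.7% were positive in Direct RNA and 66.4% in cDNA. Lists of 4 or 5 are too short for a share to be read from such counts. In the stretch chr7:29783998-30169750, Zfp260 and Zfp146 had log2 fold changes of 1.92 and 1.99 in Direct RNA and Zfp568 one of -1.69, and Zfp566, which lies between Zfp568 and Zfp260 and was not called, had -0.96. In the stretch chr17:21450374-21725636 (Zfp51, Zfp53, Zfp948 and Zfp760) no member was called with either kit, by edgeR or by DESeq2, and edgeR gave 1 unadjusted p of at most 0.05 in Direct RNA and 0 in cDNA.

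Members were also grouped by known role, in lists of 5 to 9 genes, too short for a share to be read from 1 or 2 calls, beside 9.54% and 7.67% of all genes called higher and lower in Direct RNA and 8.69% and 9.24% in cDNA. Of 5 genes for the silencing of imprinted loci and repeats, 2 fell with each kit, Zfp57 and Zfp568, and 0 rose. Zfp809, which silences murine leukaemia virus elements, had 37.3 and 49.6 CPM in Direct RNA Undiff and 21.2 and 1.36 CPM at Day4 (log2 fold change -2.04 ± 0.92, DESeq2 adjusted p = 0.152, edgeR 0.000224), and Zfp445, which acts on imprints beside Zfp57, had 40.2 and 32.0 CPM against 42.3 and 38.0 CPM (0.06 ± 0.69). Of 9 genes known from transcription in ESCs, 1 fell with each kit, Zfp296. Zfp281, a partner of Nanog, gave -1.37 ± 0.60 (log2, Direct RNA) and -0.15 ± 0.72 (cDNA) (DESeq2 adjusted p = 0.136 and 0.951, edgeR 0.00276 and 0.811), and Zfp553 had 0.05 ± 0.52 and 0.41 ± 0.80. Of 8 developmental regulators, 3 rose with each kit, Zfp503, Zfp703 and Zfp516. Zfp90 had 11.5 and 3.31 CPM in Direct RNA Undiff and 45.9 and 43.4 CPM at Day4 (2.38 ± 0.89, DESeq2 adjusted p = 0.0602), and Zfp644 had the lowest mean change of the list (-0.11 ± 0.68 in Direct RNA and 1.01 ± 0.96 in cDNA). Of 8 genes for RNA binding and ribosomes, 0 were called in Direct RNA by DESeq2, where 3 had an unadjusted p of at most 0.05. There edgeR called 3 lower, beside 15.1% of all genes. In cDNA Zfp106 fell. Zfp622, a maturation factor of the large ribosomal subunit, had 270 and 236 CPM in Direct RNA Undiff and 127 and 132 CPM at Day4 (-1.04 ± 0.38, DESeq2 adjusted p = 0.051), and Zfp598, a sensor of collided ribosomes, had 121 and 125 CPM against 60.0 and 63.7 CPM (-1.06 ± 0.49). The highest mean change of this list was that of the splicing factor Zfp326, 1.04 ± 0.79 and 0.95 ± 0.54, which was not called. Of 8 genes for ubiquitin, SUMO and chromatin, 1 rose with each kit, Zfp827, and Zfp131 had the lowest mean change (-0.78 ± 0.78 and -0.45 ± 0.84).

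**Figure D4:**
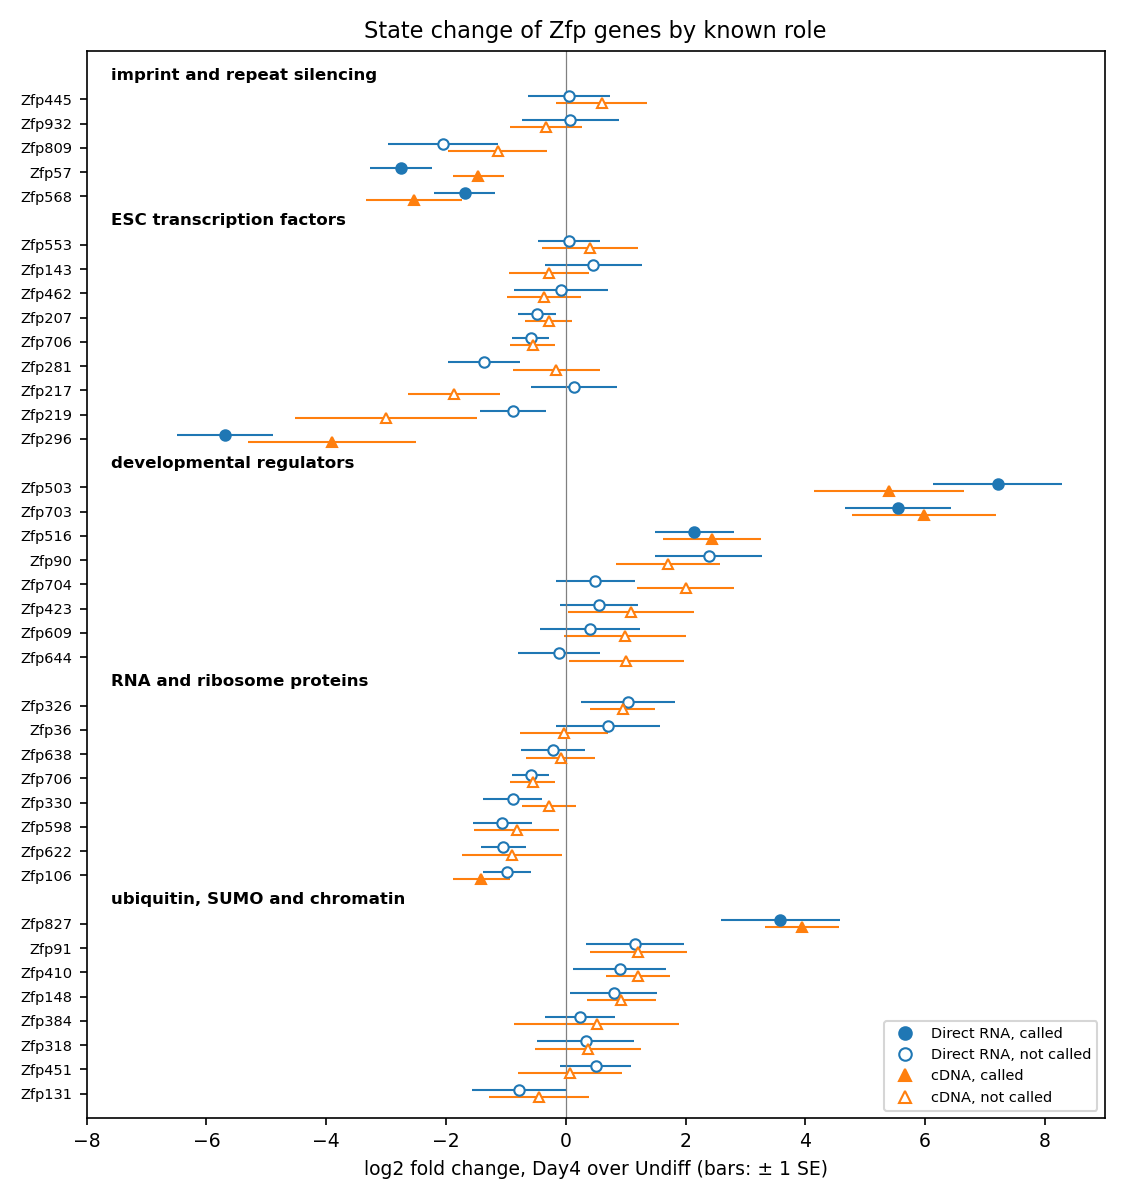
Points give the log2 fold change of Day4 over Undiff with ± 1 SE for the members of 5 role lists, in Direct RNA (blue circles) and cDNA (orange triangles), and filled symbols are called genes. Filled symbols lie to the left in the first 2 lists (Zfp57, Zfp568 and Zfp296) and to the right among the developmental regulators (Zfp503, Zfp703 and Zfp516).

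Genes linked to silencing by KRAB proteins, not all of them particular to that pathway, were measured beside the members. Of 16 such genes, 5 fell in Direct RNA (Trim28, Uhrf1, Daxx, Fam208a and Hells) and 4 in cDNA (the same without Daxx), where 7.67% and 9.24% of all genes fell. With each kit 0 rose, beside 9.54% and 8.69% of all genes. The edgeR counts were 9 and 5 lower and 0 higher, where edgeR called 15.1% and 15.6% of all genes lower and 18.7% and 17.0% higher. The median log2 fold change was -1.14 and -0.72. Trim28, the scaffold that KRAB domains bind, had 2442 and 2562 CPM in Direct RNA Undiff and 1101 and 1079 CPM at Day4, and 109 and 202 CPM against 69.8 and 77.02 CPM in cDNA (DESeq2 adjusted p = 4.26e-06 and 0.0249). Setdb1, the histone methyltransferase that Trim28 recruits, had 83.2 and 108 CPM in Direct RNA Undiff and 81.1 and 82.7 CPM at Day4 (log2 fold change -0.33 ± 0.50). The summed level of the 68 KRAB members was 1659 and 1759 CPM in Direct RNA Undiff and 1817 and 1654 CPM in Direct RNA Day4, which overlapped, and 1251 and 1411 CPM against 1495 and 2265 CPM in cDNA.

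Promoters from RefSeq on GRCm38.p6, from 250 bases before to 50 after a start site, were matched for 119 members (153 promoters). The letters CCAAT, on either strand, stood in 47.1% of them and in 37.4% of all 32851 promoters, and GGGCGG in 51.0% and 35.7%. The letters GCCATNTTG stood in 7.84% and 2.51%, and TCGCGAGA in 3.27% and 0.995%. AGGTCA, the half-site letters of retinoic acid receptors, stood in 13.7% and 16.3%, and direct repeats of it with 5 or 2 bases between (DR5 and DR2) each in 0% of the member promoters and 0.00913% of all. TATAAA stood in 7.19% and 13.6%, and CACGTG in 5.88% and 7.15%. Median GC content was 56.3% and 52.7%. The promoters of 4 members called with both kits are shown, on the gene's strand from 5′ to 3′, with the letters named above in capitals where they stood on either strand. The Zfp503 promoter (chr14:21989552-21989851, -) and the Zfp358 promoter (chr8:3492888-3493187, +) belong to genes that rose, and the Zfp296 promoter (chr7:19577037-19577336, +) and the Zfp936 promoter (chr7:43177340-43177639, +), whose start lies 63361 bases from that of the GENCODE gene, to genes that fell.
Zfp503: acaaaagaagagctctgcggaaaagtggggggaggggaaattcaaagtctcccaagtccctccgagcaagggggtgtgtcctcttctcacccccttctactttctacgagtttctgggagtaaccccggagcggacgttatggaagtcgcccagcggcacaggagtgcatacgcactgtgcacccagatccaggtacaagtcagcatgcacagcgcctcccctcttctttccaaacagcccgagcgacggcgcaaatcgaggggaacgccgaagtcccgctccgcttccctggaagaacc
Zfp358: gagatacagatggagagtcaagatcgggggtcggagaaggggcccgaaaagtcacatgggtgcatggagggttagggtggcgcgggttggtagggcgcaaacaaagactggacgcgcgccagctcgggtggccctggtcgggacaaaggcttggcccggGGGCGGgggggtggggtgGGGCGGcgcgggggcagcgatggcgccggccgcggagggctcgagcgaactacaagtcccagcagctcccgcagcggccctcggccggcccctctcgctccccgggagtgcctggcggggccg
Zfp296: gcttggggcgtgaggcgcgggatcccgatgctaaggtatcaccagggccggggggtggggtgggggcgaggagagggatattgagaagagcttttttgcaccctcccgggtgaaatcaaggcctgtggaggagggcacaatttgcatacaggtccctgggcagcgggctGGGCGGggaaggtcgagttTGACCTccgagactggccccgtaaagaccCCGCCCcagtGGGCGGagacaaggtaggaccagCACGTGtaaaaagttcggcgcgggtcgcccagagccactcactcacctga
Zfp936: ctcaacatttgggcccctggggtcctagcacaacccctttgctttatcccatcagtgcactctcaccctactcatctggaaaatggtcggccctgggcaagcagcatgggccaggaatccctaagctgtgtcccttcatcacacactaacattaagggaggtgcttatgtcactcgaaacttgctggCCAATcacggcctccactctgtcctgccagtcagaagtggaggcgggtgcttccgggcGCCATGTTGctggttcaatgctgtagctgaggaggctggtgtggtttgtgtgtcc
The Zfp503 window held none of these letters, the Zfp358 window GGGCGG at 2 places, the Zfp296 window GGGCGG at 3 places with AGGTCA and CACGTG at 1 each, and the Zfp936 window CCAAT and GCCATNTTG at 1 place each. Among members called with at least 1 kit, CCAAT stood in the promoters of 3 of 15 that were higher at Day4 and 6 of 8 that were lower, GGGCGG in 8 and 3, AGGTCA in 0 and 2, CACGTG in 0 and 2, TATAAA in 1 and 1, GCCATNTTG in 1 and 1 and TCGCGAGA in 0 and 0. These counts are by gene and the shares above by promoter. By gene, of the 119 members matched, 63 had CCAAT (52.9%), 66 GGGCGG, 18 AGGTCA, 9 CACGTG, 10 TATAAA, 11 GCCATNTTG and 4 TCGCGAGA. The 32851 promoters were not limited to genes with reads, so the shares do not show what is particular to Zfp genes. A match here is a run of letters and not a measured binding site.

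Between kits, with state as a covariate, 28 of 148 members were called higher in cDNA (18.9%, against 24.7% of 10426 genes) and 35 lower (23.6%, against 26.6%), with a median log2 fold change of 0.01 beside -0.02 over all genes. After thinning to the smallest library 39.5 members were called (median of 10 draws), and over 22 other settings the median of the members ranged from -0.42 to 0.10 and that of all genes from -0.36 to 0.05. Zfp593, a ribosome biogenesis protein, was the lowest in cDNA, with 77.5 and 77.1 CPM in Direct RNA Undiff and 28.2 and 28.5 CPM in Direct RNA Day4 but only 2 reads in the 4 cDNA libraries together (log2 fold change of cDNA over Direct RNA -5.69 ± 0.76, DESeq2 adjusted p = 1.01e-12). Zfp646 had 24.4 to 58.4 CPM in Direct RNA and at most 0.963 CPM in cDNA (-5.18 ± 0.73). Zfp771 had 45.9 to 80.0 CPM against at most 1.92 CPM (-4.62 ± 0.58), Zfp219 43.4 to 89.0 CPM against at most 4.79 CPM (-4.49 ± 0.59), and Zfp384 48.8 to 63.5 CPM against at most 2.89 CPM (-3.97 ± 0.49). These 5 genes did not overlap between kits in any state. The highest in cDNA were Zfp367 (5.42 to 21.2 CPM in Direct RNA and 30.3 to 95.9 CPM in cDNA, 3.17 ± 0.47), Zfp710 (28.5 to 82.6 and 120 to 520 CPM, 3.02 ± 0.29), Zfp691 (2.65 ± 0.44), Zfp235 (2.60 ± 0.62) and Zfp329 (2.41 ± 0.59).

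Among KRAB members 14 were called higher in cDNA and 5 lower of 68 (20.6% and 7.35%, against 24.7% and 26.6% of all genes), with a median log2 fold change of 0.45. The other C2H2 members had 13 called higher and 28 lower of 73 (17.8% and 38.4%) and a median of -0.47, and no test between the classes was made. The classes also differed in base composition, with a median GC content of 41.4% for KRAB and 48.6% for other C2H2 transcripts. Across the 148 members the kit difference and GC content had a Spearman rho of -0.27 (-0.21 across 10395 genes), and with transcript length it had a rho of -0.12 (-0.30), where all genes share the same 8 libraries. Of the 36 members whose exons overlap a gene on the other strand, 13 were called lower in cDNA (36.1%) and 5 higher (13.9%), and of the 112 without such an overlap 22 lower (19.6%) and 23 higher (20.5%). Over all genes 34.3% of those with an overlap and 23.1% of those without were called lower, and 20.6% and 26.4% higher. Of the 5 lowest members, Zfp593, Zfp646, Zfp219 and Zfp384 had such an overlap and Zfp771 did not, while Zfp367 and Zfp710 at the other end had it too. Direct RNA was counted by strand and cDNA was not stated to be, and the parts of strand, GC content and length in the kit difference were not tested.

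**Figure D5:**
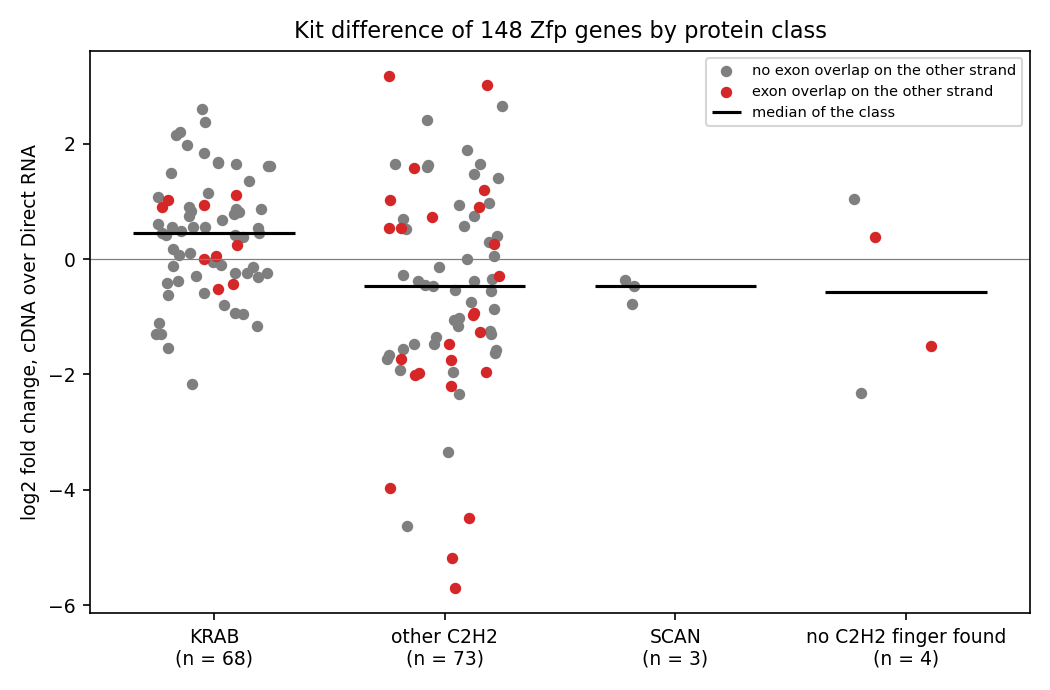
Each point is the log2 fold change of cDNA over Direct RNA for 1 of the 148 Zfp genes, by protein class, with genes whose exons overlap a gene on the other strand in red and black lines at the class medians. The KRAB median lies above 0 (0.45) and the median of the other C2H2 class below it (-0.47), and 4 of the 5 lowest points are red.

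For the interaction of kit and state, which asks whether the state change differed between kits, 0 of 148 members were called by DESeq2 and 0 by edgeR. Of the 17267 genes with reads DESeq2 called 2 (0.0116%) and edgeR 14 (0.0811%), since no minimum of size or mean was used here. An unadjusted p of at most 0.05 was reached by 3 members with DESeq2 and 10 with edgeR, and by 149 and 386 of the 10426 genes with a mean normalised count of 5 or more. The 3 were Zfp219 (log2 difference -4.27 ± 1.79, cDNA minus Direct RNA), Zfp57 (1.34 ± 0.63) and Zfp217 (-2.19 ± 1.11), each with a DESeq2 adjusted p of 1. Zfp219 had 1 and 10 reads in cDNA Undiff and none in cDNA Day4, where the floor allows only that it was at least 1.57-fold higher in Undiff. Zfp217 had 40.1 and 13.4 CPM in cDNA Undiff and 4.55 and 12.5 CPM in cDNA Day4, and 40.2 and 28.7 CPM against 56.4 and 27.1 CPM in Direct RNA. Its states overlapped in Direct RNA and not in cDNA, where 23.2% of all genes tested had both Day4 libraries below both Undiff libraries.

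Some members share sequence with other genes, so that reads could be split or lost in counting. Of the 148, 71 shared none of their 50-base words with another gene, and 10 shared over 20% of them. Zfp97 and Zfp960 shared 73.4% and 74.0% of their words with other genes, most often each other, and Zfp808 and Zfp934, likewise a pair, 40.4% and 38.1%, and their separate levels are uncertain. Zfp97 had 57.4 and 51.8 CPM in Direct RNA Undiff and 17.6 and 16.3 CPM at Day4 (log2 fold change -1.68 ± 0.73, DESeq2 adjusted p = 0.131, edgeR 0.0034), and Zfp960 had 31.6 and 34.2 CPM against 10.6 and 21.7 CPM (-0.97 ± 0.83). None of the 10 was called between states by DESeq2 with either kit, where 1 had an unadjusted p of at most 0.05 in Direct RNA and 3 in cDNA, and edgeR called 4 in Direct RNA and 3 in cDNA. Over all genes DESeq2 called 9.54% higher and 7.67% lower in Direct RNA and 8.69% and 9.24% in cDNA, and edgeR 18.7% and 15.1%, then 17.0% and 15.6%, so that 0 of 10 is no result about sharing.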

How the data were processed

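Long-read libraries of R1 ESCs were compared by state (Undiff, Day4) and kit (Direct RNA, cDNA), from 2 separately grown cultures per state, whose RNA was used for both kits. The deposited counts are raw whole reads per gene: the authors aligned reads to mm10 with minimap2 and counted them with HTSeq, by strand for Direct RNA; the setting for cDNA is not given in the sources used here. The rows of reads that HTSeq gave to no gene, 38.1% to 61.7% of all entries of a library, were left out, and CPM are reads scaled to 1000000 on genes.

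States were compared within each kit, and kits with state as a covariate, by the Wald test of DESeq2 1.42.0 with shrinkage of fold changes, with Benjamini-Hochberg adjustment over all genes with reads; genes with a mean normalised count of at least 5 are counted as tested. The interaction was fitted without shrinkage or that minimum. Alternatives were edgeR 4.0.16, TMM factors, no shrinkage, DESeq2's filters, at least 10 reads in 2 libraries, a replicate block, leaving out each library and thinning. Scripts were tested on simulated data. Intervals and floors (3 reads) cover counting error only.

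Domains, lengths and overlaps came from GENCODE models on GRCm38. KRAB and SCAN domains were found with profiles (pyhmmer 0.12.3, E-value at most 0.001, 3 rounds) built from the members that match short patterns, in place of the patterns first planned. Named genes were the members of role lists (examples by highest and lowest mean change), those called between states with both kits, the 5 highest and lowest between kits, the 3 smallest interaction p-values, the 5 most abundant per kb, 3 on each side of the 100-read minimum, and members of clusters and pairs. Genes called with 1 kit were named beyond this rule, after their values were seen. The members and lists were chosen with earlier results of these data known.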

Additional observations from a re-analysis of the deposited data

How the results depend on the processing

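Directions between states held under the alternatives for the 14 members called with both kits. Members called between states numbered 18 in Direct RNA and 48 with edgeR, and 23 in cDNA and 51 with edgeR. Leaving out 1 library gave 4 to 10 in Direct RNA and 8 to 14 in cDNA, and thinning to the smallest library gave 5 in cDNA. Between kits, 63 became 39.5 with thinning and 33 among members with at least 200 reads. A fit with the replicate number as a block called 10 in Direct RNA and 19 in cDNA. Under it Zfp503, Zfp260, Zfp516, Zfp568, Zfp827, Zfp961, Zfp146 and Zfp523 were not called in Direct RNA, nor Zfp703, Zfp516, Zfp568 and Zfp106 in cDNA. Replicate numbers were not shown to pair the samples, since deviations of same-numbered libraries correlated at 0.214, 0.50, 0.124 and -0.416. Zfp296 in cDNA was no longer called with TMM factors.

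The summed level in CPM was 7096 (members with at least 50 reads) and 4160 (at least 200) for the Undiff state of Direct RNA, 8281 and 3866 for its Day4 state, and 3602 and 3970 (at least 200) for Undiff and Day4 of cDNA. With DESeq2 size factors in place of library totals, the sums of normalised counts, scaled so that the mean normalised library holds 1000000, were 4706 for Undiff and 4812 for Day4 of Direct RNA and 6129 for Undiff of cDNA. Members detected with at least 10 reads were 88.5, 106.5, 93 and 133 in the same order of groups, and after thinning 123, 140, 98.5 and 129. Leaving out 1 library reversed changes that were not called in the same comparison, with log2 ranges of -0.13 to 1.37 for Zfp266, -0.089 to 0.11 for Zfp445, -0.40 to 0.60 for Zfp553, -0.32 to 0.058 for Zfp644 and -0.12 to 0.40 for Zfp868 in Direct RNA, and -0.18 to 1.34 for Zfp553 and -0.98 to 0.31 for Zfp131 in cDNA. The causes were not tested.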
